A study of Homo sapiens with 18 samples.

Results

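This account describes 37 genes of homologous recombination and the Fanconi anaemia pathway in human prostate cancer cells after knockdown of TRIM24. The genes were chosen by name for their roles in DNA repair, and their probe sets were taken from the array platform's annotation. Of the 37 genes, 33 had at least 1 probe set naming a single gene, 72 probe sets in all, out of 19775 genes and 54675 probe sets on the array. The other 4 genes were not analysed here. Of the 33 genes, 32 passed the filter on low values and were tested among 13607 genes; FANCB, a subunit of the Fanconi core complex, did not, with array values of 3.13 to 3.99 on the log2 scale.

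The 18 Affymetrix arrays, hybridised with total RNA, fell into 6 groups of 3. LNCaP-abl cells, an LNCaP derivative that grows without androgen, carried TRIM24 siRNA or control siRNA and received vehicle. LNCaP cells, an androgen-responsive line, carried TRIM24 siRNA or control siRNA and received 10 nM dihydrotestosterone (DHT, the active androgen) or ethanol vehicle for 24 h, after growth in charcoal-stripped serum. Transfection lasted 48 h in every group, so all control arrays also come from transfected cells. TRIM24 binds modified histones through its bromodomain, has ubiquitin ligase activity and works with nuclear receptors, and the comparisons ask which genes depend on it with hormone, without hormone and in the androgen-independent line. Each line is a single cell line, and knockdown by siRNA is partial.

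Homologous recombination repairs DNA double-strand breaks by copying the intact sister chromatid, and therefore works mainly in S and G2 phases. The Fanconi pathway recognises DNA strands that are covalently crosslinked, marks the site with ubiquitin and hands it to nucleases and to recombination. Many of these genes are transcribed at a higher level in dividing cells, and defects in several of them occur in advanced prostate cancer and sensitise tumours to PARP inhibitors.

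Values are log2 signals made with RMA, a method that summarises the probes of a probe set, and are given as the 3 arrays of a group. A change is the difference of 2 group means in log2 units with its standard error (n = 3 arrays per group), and a gene was called at a limma adjusted p under 0.05. Whether the replicates of a group were separate cultures is not stated in the labels, and the p-values cover only the spread among arrays, possibly a technical one. The number of arrays limits the precision. Array medians lay between 5.83 and 5.93, and arrays of a group correlated at 0.996 to 0.998 across probe sets. TRIM24 itself fell by 2.08 ± 0.05 in LNCaP-abl, by 2.14 ± 0.05 in LNCaP with DHT and by 1.99 ± 0.05 in LNCaP with vehicle, with no overlap between arrays. Of 7 luminal prostate markers 5, including HOXB13, KRT8 and FOLH1, averaged at least 5.88 in all 6 groups. KLK3 reached 5.88 in 4 groups and KLK2 in 2. Of 16 markers of basal, stromal, immune, endothelial and neuroendocrine cells 9, including KRT5, KRT14, PTPRC and CHGA, were below it in every group, and 4 (COL1A1, PECAM1, VWF and SYP) were above it in every group, at 6.05 to 7.49. COL3A1, DCN and CD3E reached it in 2, 4 and 2 groups.

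**Figure D1:**
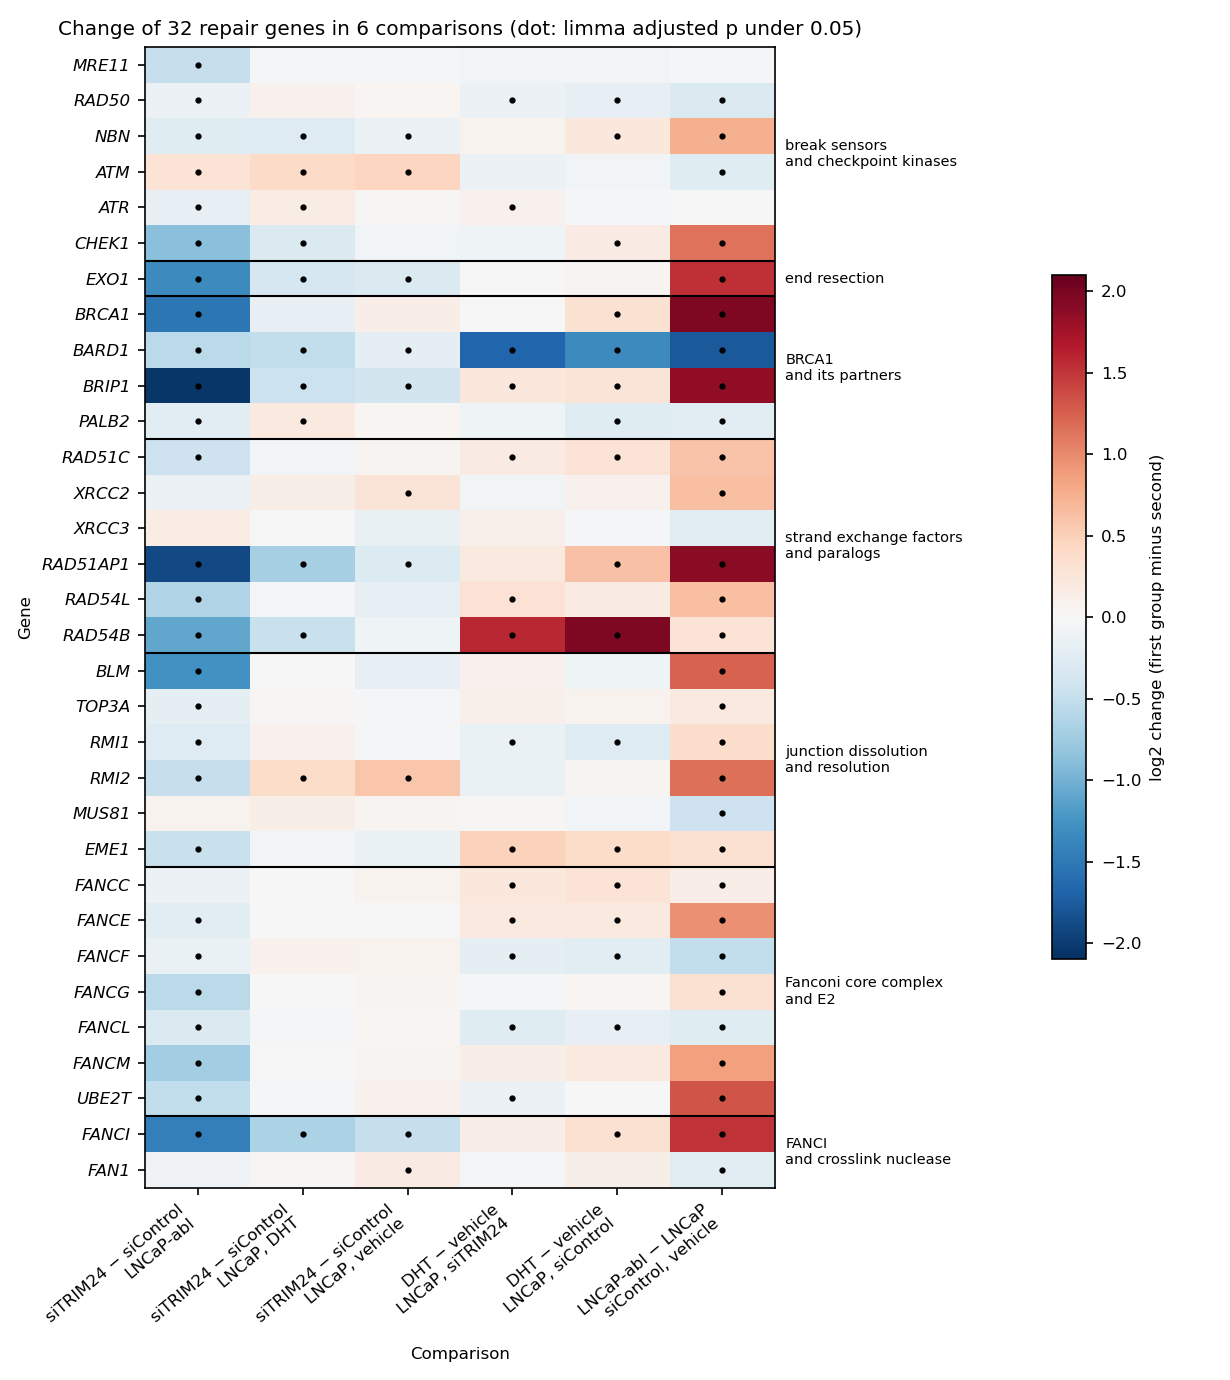
Log2 change of each tested member gene (rows, grouped by role) in the 6 pairwise comparisons (columns), with TRIM24 siRNA over control siRNA, DHT over vehicle and LNCaP-abl over LNCaP. Colour gives the change and a dot marks a called gene. Of 32 genes 26 were called lower after knockdown in LNCaP-abl, against 8 in LNCaP with DHT and 6 in LNCaP with vehicle. Of all tested genes 28.8%, 20.8% and 18% were called lower in these comparisons, so the LNCaP counts are near the background.

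Knockdown of TRIM24 in LNCaP-abl cells lowered most of the repair genes. Of the 32 tested members 26 fell and 1, ATM, rose. Over all tested genes 28.8% fell and 16.7% rose (45.6% called in either direction), so falling was more frequent among these genes than in the background. The median change of the members was -0.45, against -0.01 for all tested genes, and the arrays of the groups did not overlap for 29 members, against 52% of all tested genes. A fall of at least 1 log2 unit was seen for 7 members: BRIP1, RAD51AP1, BRCA1, FANCI, EXO1, BLM and RAD54B. Among all 13607 tested genes 159 fell as far. In total RNA of bulk cultures, fewer cells transcribing a gene and less transcript per cell cannot be told apart. EXO1, BRIP1 and BLM averaged at least 5.88, the filter on low values, only in control LNCaP-abl cells, so they had to differ there. Without them 23 of 29 members fell, 4 of them by at least 1 log2 unit, 1 rose and the median was -0.30. With no filter 27 of 33 fell and 1 rose. The 3' over 5' log2 signal of the GAPDH control probe sets averaged 0.64 in TRIM24 siRNA and 0.56 in control siRNA LNCaP-abl arrays. Their ranges, 0.62 to 0.66 and 0.54 to 0.57, did not overlap, so RNA quality and knockdown cannot be told apart by this covariate. With it in the model 19 of 32 members fell and 1 rose, and of the 13607 tested genes 2249 fell and 1053 rose. Among all tested genes 3925 fell and 2276 rose; with each array centred on its median these were 4527 and 1607 (28 and 1 of the members), and with quantile normalization 3131 and 3019 (23 and 2).

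All 4 tested genes of the BRCA1 group fell. BRIP1, a helicase that binds BRCA1, read 5.21, 5.20 and 5.04 on LNCaP-abl arrays with TRIM24 siRNA, against 7.19, 7.31 and 7.08 with control siRNA. BRCA1, the ubiquitin ligase and scaffold that directs breaks to recombination, read 6.21, 6.30 and 6.34 with TRIM24 siRNA, against 7.85, 7.83 and 7.72 with control siRNA. Neither gene's arrays overlapped, and every knockdown array was well below every control array. BRIP1 fell by 2.05 ± 0.08 (adjusted p = 7.87e-12), or 4.13-fold. BRCA1 fell by 1.52 ± 0.08 (adjusted p = 4.96e-10), or 2.86-fold, but by 0.31 (adjusted p = 0.028) in its other tested probe set. After knockdown BRIP1 was below 5.88, where RMA compresses values, so its fall can be too small. BARD1, the obligate partner of BRCA1 in the ligase, read 9.34, 9.26 and 9.18 with TRIM24 siRNA, against 9.78, 9.83 and 9.85 with control siRNA. Its fall of 0.56 ± 0.04 (adjusted p = 1.28e-08) was smaller, again without overlap. PALB2, a scaffold that binds BRCA1 at breaks, fell by 0.24 ± 0.06 (adjusted p = 0.00639).

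Promoter sequence was read from RefSeq (GRCh38.p14) for 33 of the 37 listed genes, 28 of them tested. The 120 bases upstream of the start are shown for BRIP1, RAD51AP1, BRCA1, EXO1 and BLM, the 5 members with a promoter in the table that fell by at least 1 log2 unit, and for BARD1, which fell less and responded to DHT. Sequences run 5′ to 3′ on the gene's strand, and capitals mark CCAAT or its reverse complement ATTGG, and GCGGGAA.
BRIP1, chr17:61863529-61863648, minus strand: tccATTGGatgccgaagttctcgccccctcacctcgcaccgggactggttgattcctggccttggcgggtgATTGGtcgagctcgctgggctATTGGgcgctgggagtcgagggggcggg
RAD51AP1, chr12:4538770-4538889, plus strand: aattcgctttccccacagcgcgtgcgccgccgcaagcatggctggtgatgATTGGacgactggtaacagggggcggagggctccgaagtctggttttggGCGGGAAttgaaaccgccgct
BRCA1, chr17:43125365-43125484, minus strand: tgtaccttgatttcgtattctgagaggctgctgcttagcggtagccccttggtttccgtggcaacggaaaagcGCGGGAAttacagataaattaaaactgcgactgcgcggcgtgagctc
BRCA1, other start, chr17:43170328-43170447, minus strand: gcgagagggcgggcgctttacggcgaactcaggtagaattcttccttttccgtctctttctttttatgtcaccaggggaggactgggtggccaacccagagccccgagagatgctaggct
EXO1, chr1:241848084-241848203, plus strand: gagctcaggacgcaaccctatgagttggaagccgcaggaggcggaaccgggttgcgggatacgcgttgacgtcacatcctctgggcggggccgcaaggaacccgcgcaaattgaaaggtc
EXO1, other start, chr1:241848611-241848730, plus strand: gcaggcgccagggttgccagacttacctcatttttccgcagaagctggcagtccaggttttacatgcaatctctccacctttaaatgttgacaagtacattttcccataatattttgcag
BLM, chr15:90717226-90717345, plus strand: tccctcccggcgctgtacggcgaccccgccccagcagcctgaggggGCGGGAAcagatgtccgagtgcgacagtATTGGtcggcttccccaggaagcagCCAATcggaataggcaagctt
BARD1, chr2:214809684-214809803, minus strand: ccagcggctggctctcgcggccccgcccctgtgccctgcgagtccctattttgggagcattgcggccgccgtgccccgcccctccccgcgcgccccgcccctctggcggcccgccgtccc
Motifs were searched on both strands of the 250 bases before each start. The box CCAAT occurred in 48.5% of the members with a promoter, against 37% of all 27305 genes with one. The word GCGGGAA, which overlaps E2F-type words and was added after the promoters had been read, occurred in 27.3% of the members, against 6.66% of all genes. Its share among the members is therefore not independent of its choice, and no enrichment is read from it. The longer E2F-type words TTTCCCGC, TTTCGCGC, TTTGGCGC and TTTGCCGC occurred in 9.09% of the members (3 of 33), against 3.4% of all genes. Among tested members with a promoter they occurred in 0 of 5 that fell by at least 1 log2 unit in LNCaP-abl. They occurred in 1 of 17 that fell by less and in 1 of 6 that rose or were not called. TTTGAA, the cell cycle homology word, occurred in 12.1% of the members, against 16.1% of all genes. In the same sets by size of fall, and in the same order, CCAAT occurred in 4 of 5, 8 of 17 and 3 of 6. GCGGGAA occurred in 3 of 5, 5 of 17 and 1 of 6, and TTTGAA in 1 of 5, 1 of 17 and 2 of 6. The stretches of BARD1, of both EXO1 starts and of the other BRCA1 start hold none of the words searched. A match is a description of the letters and was not tied to binding.

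In LNCaP-abl the median change of the 6 break sensing and signalling genes was -0.21, against -1.04 for the 4 genes of the BRCA1 group. The latter median depends on BRIP1, which reached the filter only in control LNCaP-abl cells and so had to differ there. It also depends on BRCA1, which fell by only 0.31 in its other tested probe set. CHEK1 fell by more than BARD1 and PALB2 of the BRCA1 group. NBN, the Nijmegen breakage subunit of the MRE11-RAD50 break sensor, read 10.58, 10.47 and 10.55 on LNCaP-abl arrays with TRIM24 siRNA, against 10.78, 10.80 and 10.77 with control siRNA, a fall of 0.25 ± 0.03 (adjusted p = 1.38e-05). In its other tested probe sets NBN fell by 0.37 to 0.55. CHEK1, the S phase checkpoint kinase, read 7.36, 7.44 and 7.38 with TRIM24 siRNA, against 8.14, 8.31 and 8.38 with control siRNA, a fall of 0.88 ± 0.05 (adjusted p = 1.7e-09). Arrays of these groups did not overlap for either gene. MRE11, the nuclease of the sensor, fell by 0.48 ± 0.06, and ATR, the kinase of replication stress, by 0.17 ± 0.04. RAD50, the zinc-hook partner of MRE11, fell by 0.12 ± 0.04, whereas its other tested probe sets were at 0.11 and 0.12 and did not pass the test. ATM, the kinase activated by double-strand breaks, went the other way. It read 7.68, 7.60 and 7.65 with TRIM24 siRNA, against 7.21, 7.51 and 7.36 with control siRNA, a rise of 0.29 ± 0.07 (adjusted p = 0.00231). Of the other tested ATM probe sets 1 rose by 0.21 (adjusted p = 0.0213), and 2 did not pass the test, at 0.05 and, for the one with the largest variance, -0.06. EXO1, a nuclease that resects break ends, read 5.39, 5.44 and 5.24 with TRIM24 siRNA, against 6.69, 6.65 and 6.72 with control siRNA. It fell by 1.33 ± 0.08 (adjusted p = 2.43e-09), with knockdown values below the filter.

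Among strand exchange factors and their paralogs, 4 of 6 fell in LNCaP-abl. RAD51AP1, which stimulates strand invasion, read 7.28, 7.03 and 7.09 with TRIM24 siRNA, against 9.06, 8.99 and 9.03 with control siRNA. Its fall of 1.89 ± 0.08 (adjusted p = 5.43e-11), or 3.71-fold, was second among members only to that of BRIP1. RAD54B, a chromatin-remodelling relative of RAD54, read 6.01, 5.81 and 5.63 with TRIM24 siRNA, against 6.82, 7.01 and 6.91 with control siRNA. It fell by 1.10 ± 0.08 (adjusted p = 1.4e-08). RAD54L fell by 0.62 ± 0.08, and RAD51C, a subunit of the recombination paralog complexes, read 8.89, 8.92 and 8.79 with TRIM24 siRNA against 9.29, 9.29 and 9.32 with control siRNA, a fall of 0.43 ± 0.04 (adjusted p = 4.72e-07). The paralogs XRCC2 (-0.13, adjusted p = 0.0995) and XRCC3 (0.15, adjusted p = 0.277) did not pass the test, and arrays of the groups overlapped for both.

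Of the 6 genes that dissolve or cut joined DNA molecules, 5 fell. BLM, the helicase mutated in Bloom syndrome, read 5.49, 5.42 and 5.34 on LNCaP-abl arrays with TRIM24 siRNA, against 6.71, 6.68 and 6.68 with control siRNA, a fall of 1.27 ± 0.09 (adjusted p = 2.21e-08). Its partners TOP3A, RMI1 and RMI2 fell by 0.20 ± 0.06, 0.28 ± 0.05 and 0.48 ± 0.07, and with the GAPDH covariate RMI1 was at -0.23 and lost its call (adjusted p = 0.0625, against 0.000153). EME1 fell by 0.46 ± 0.09, but its other tested probe set and that of TOP3A did not pass the test, at -0.12 and -0.15, and MUS81, the nuclease that EME1 binds, did not pass the test (0.07, adjusted p = 0.258).

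In the Fanconi pathway 6 of 7 tested genes of the core complex and its ubiquitin-conjugating enzyme fell. UBE2T, that enzyme, read 10.02, 9.93 and 10.00 on LNCaP-abl arrays with TRIM24 siRNA, against 10.49, 10.51 and 10.52 with control siRNA. It fell by 0.52 ± 0.05 (adjusted p = 1.71e-07), with no overlap. FANCM, the translocase that anchors the complex, fell by 0.74 ± 0.09 but was at 0.01 (adjusted p = 0.951) in its other tested probe set. FANCG fell by 0.57 ± 0.07, FANCL, the ubiquitin ligase, by 0.30 ± 0.04, FANCE by 0.23 ± 0.07 and FANCF by 0.14 ± 0.04. FANCC was at -0.11 (adjusted p = 0.0886). FANCI, which the complex ubiquitinates, read 7.74, 7.69 and 7.63 with TRIM24 siRNA, against 9.04, 9.16 and 9.15 with control siRNA. FANCI fell by 1.43 ± 0.06 (adjusted p = 6.9e-11), or 2.70-fold, and its groups lay more than 1 log2 unit apart. The crosslink nuclease FAN1 was at -0.07 (adjusted p = 0.317).

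**Figure D2:**
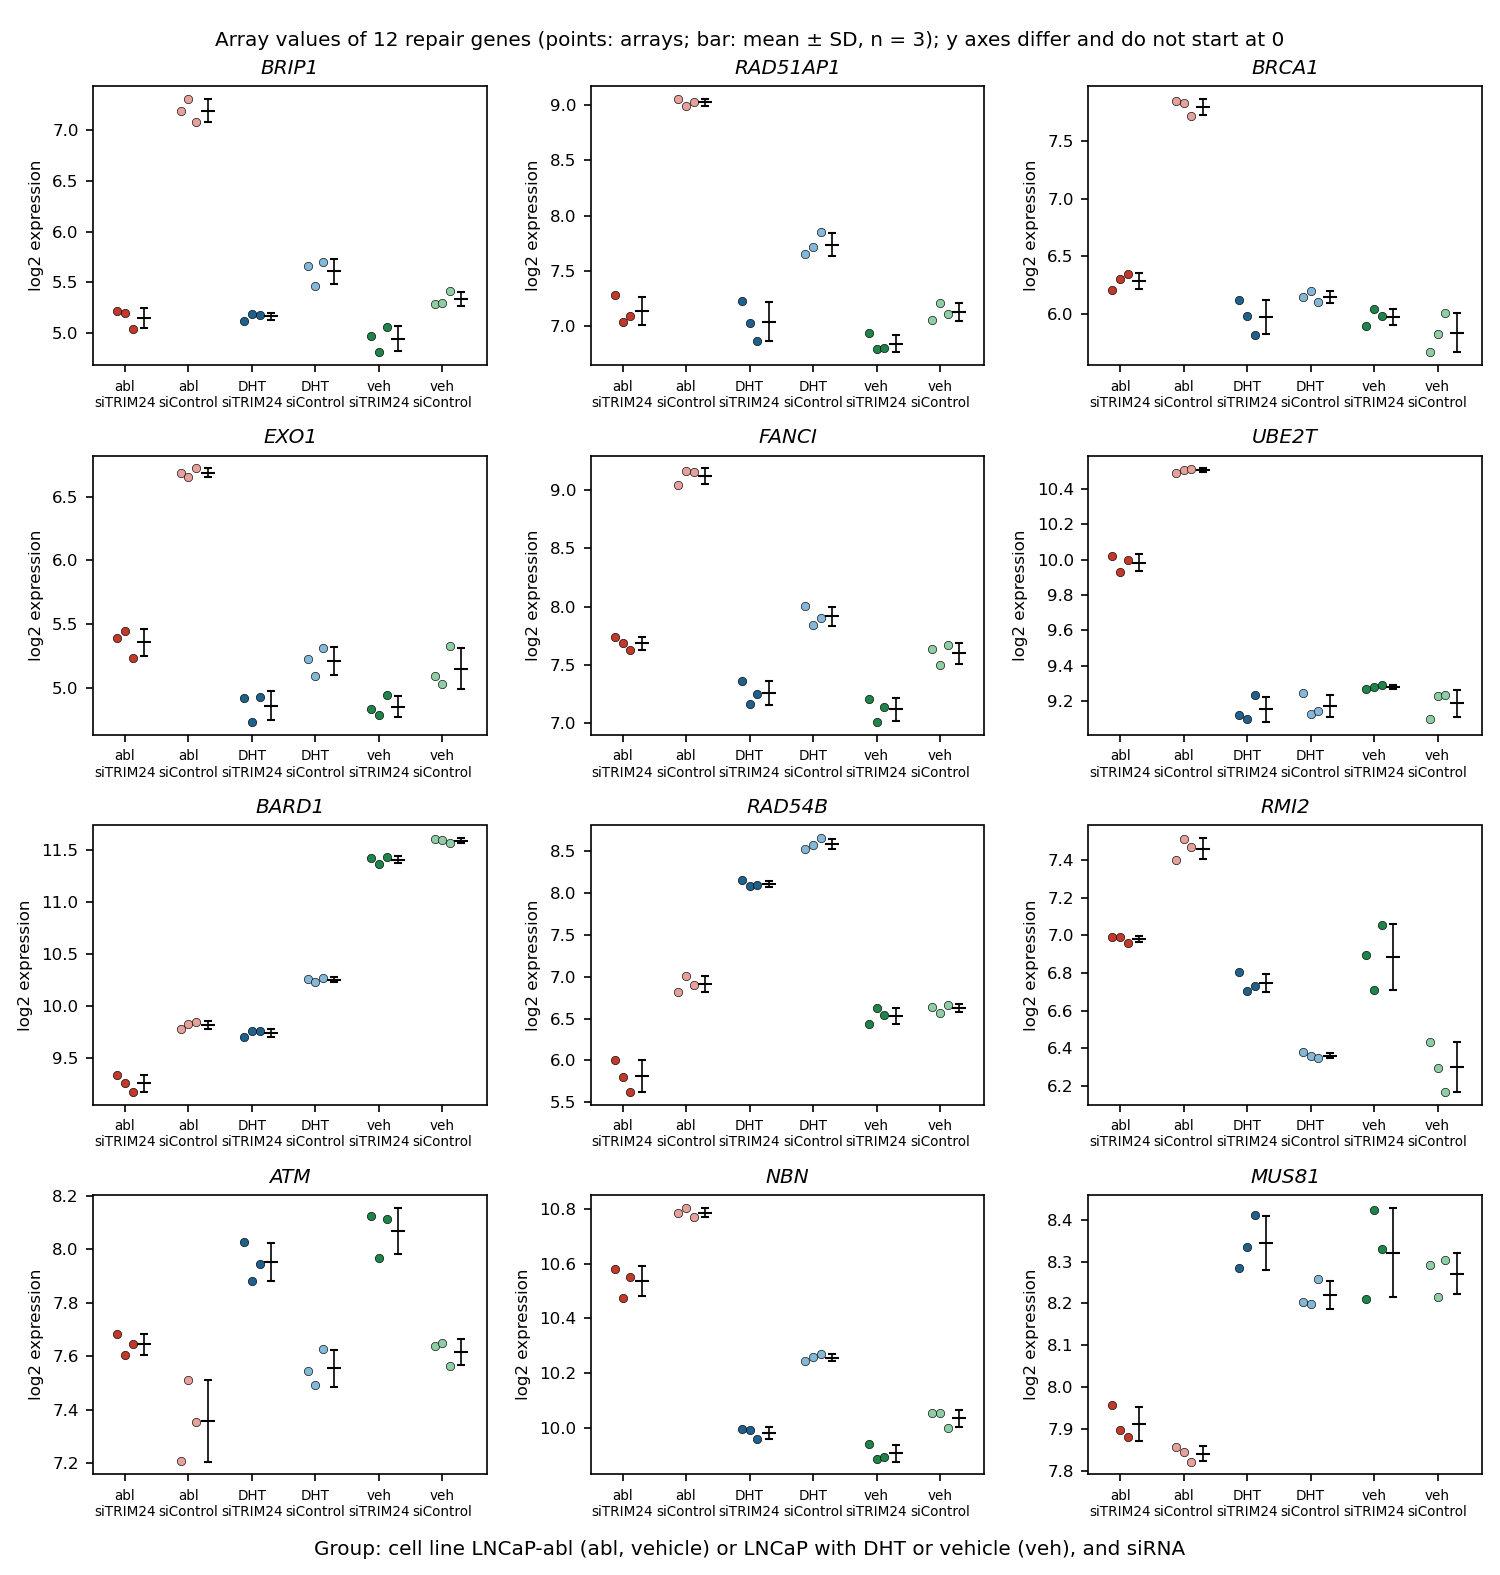
Log2 signal of 12 member genes on each of the 18 arrays (points) with group means ± SD (n = 3), 1 panel per gene and with TRIM24 siRNA left of its control siRNA. In LNCaP-abl cells with TRIM24 siRNA BRCA1 lay at 6.21 to 6.34, against 7.72 to 7.85 with control siRNA.

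In LNCaP cells knockdown moved fewer of these genes, in both directions. With DHT 8 of 32 members fell and 4 rose, against 20.8% and 19.4% of all tested genes (40.2% called in either direction). With vehicle 6 fell and 4 rose, against 18% and 20.5% (38.5% called). Both shares are near the background, and the medians were -0.01 with DHT and 0.01 with vehicle. Arrays did not overlap for 15 members with DHT and 13 with vehicle, against 49.7% and 50.9% of all tested genes. The GAPDH 3' over 5' signal averaged 0.63 in TRIM24 siRNA and 0.56 in control siRNA arrays with DHT, and 0.59 and 0.52 with vehicle. In both settings every TRIM24 siRNA array lay above every control array, so here too the covariate cannot be told apart from knockdown. With this signal as a covariate 2 members fell and 4 rose with vehicle, against 1662 and 1771 of all tested genes. Calls were lost for EXO1 at -0.36 (-0.30 without the covariate), NBN at -0.07 (-0.13) and BARD1 at -0.12 (-0.18).

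Among the falls, NBN, EXO1, BARD1, BRIP1, RAD51AP1 and FANCI were called lower in all 3 knockdown comparisons, which share no arrays. They are 18.75% of the tested members, against 11.3% of all tested genes. EXO1 and BRIP1 reached 5.88 only in control LNCaP-abl cells, so their fall in LNCaP-abl was favoured by the filter. RAD51AP1 read 7.23, 7.02 and 6.87 in LNCaP with DHT and TRIM24 siRNA, against 7.65, 7.71 and 7.85 with DHT and control siRNA, a fall of 0.70 ± 0.08 (adjusted p = 5.08e-06). With vehicle it read 6.93, 6.79 and 6.80 with TRIM24 siRNA, against 7.05, 7.21 and 7.11 with control siRNA, a fall of 0.28 ± 0.08 (adjusted p = 0.0128). Knockdown arrays lay below control arrays in both settings. FANCI read 7.363, 7.163 and 7.253 with DHT and TRIM24 siRNA, against 8.002, 7.846 and 7.901 with DHT and control siRNA, a fall of 0.66 ± 0.06 (adjusted p = 6.04e-07). With vehicle FANCI read 7.21, 7.01 and 7.14 with TRIM24 siRNA, against 7.64, 7.50 and 7.67 with control siRNA, a fall of 0.48 ± 0.06 (adjusted p = 1.9e-05). These groups did not overlap either. BARD1 fell by 0.51 ± 0.04 with DHT (adjusted p = 3.8e-08) and by 0.18 ± 0.04 with vehicle (adjusted p = 0.00153). NBN fell by 0.27 ± 0.03 with DHT and by 0.13 ± 0.03 with vehicle. BRIP1 and EXO1 were below 5.88 in every LNCaP group, so their falls there, of 0.45 ± 0.08 and 0.35 ± 0.08 with DHT and of 0.39 ± 0.08 and 0.30 ± 0.08 with vehicle, can be too small. RAD54B and CHEK1 fell with DHT, by 0.47 ± 0.08 and 0.31 ± 0.05. BRCA1 did not pass the test in LNCaP, at -0.17 with DHT (adjusted p = 0.103) and 0.14 with vehicle (adjusted p = 0.205), and its mean with vehicle and control siRNA was below 5.88.

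Other members rose. RMI2, a subunit of the BLM dissolvasome, read 6.89, 6.71 and 7.06 in LNCaP with vehicle and TRIM24 siRNA, against 6.43, 6.30 and 6.17 with control siRNA, a rise of 0.59 ± 0.07 (adjusted p = 7.93e-06). With DHT it read 6.80, 6.71 and 6.73 with TRIM24 siRNA, against 6.38, 6.36 and 6.35 with control siRNA, a rise of 0.39 ± 0.07. All knockdown arrays lay above all control arrays, the reverse of LNCaP-abl. ATM read 8.12, 7.97 and 8.11 with vehicle and TRIM24 siRNA, against 7.64, 7.65 and 7.56 with control siRNA, a rise of 0.45 ± 0.07 (adjusted p = 4.99e-05). With DHT ATM rose by 0.40 ± 0.07 (adjusted p = 0.000159), again without overlap. XRCC2 read 6.98, 7.03 and 6.88 with vehicle and TRIM24 siRNA, against 6.72, 6.76 and 6.58 with control siRNA, a rise of 0.28 ± 0.06 (adjusted p = 0.00145). FAN1 rose by 0.17 ± 0.05 with vehicle, and ATR and PALB2 rose by 0.16 ± 0.04 and 0.20 ± 0.06 with DHT. The calls of ATM and ATR with DHT and of FAN1 with vehicle were lost under another way of choosing or averaging probe sets. None of the Fanconi core complex genes or UBE2T was called in either LNCaP setting.

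The difference between the lines was tested as an interaction, the knockdown change in LNCaP-abl minus that in LNCaP with vehicle. It was negative and called for 24 of 32 members and positive for none, against 19.9% and 8.6% of all tested genes (28.5% called), and without EXO1, BRIP1 and BLM for 21 of 29. Among all tested genes 2714 terms were negative and 1170 positive; after median centring these were 3404 and 757 (29 and none of the members), and after quantile normalization 1827 and 1644 (18 and none). The most negative terms were those of BRIP1 (-1.66 ± 0.11, adjusted p = 5.01e-08), BRCA1 (-1.65 ± 0.11, adjusted p = 8.96e-08, against -0.39 and 0.0761 in its other probe set) and RAD51AP1 (-1.61 ± 0.12, adjusted p = 1.6e-07). BRIP1 reached the filter only in control LNCaP-abl cells, which favoured a negative term. RMI2 had -1.07 ± 0.10, with a rise in LNCaP and a fall in LNCaP-abl. The matching term for DHT, the knockdown change with DHT minus that with vehicle, was called for 4 members, all negative, against 11.1% of all tested genes (5.7% negative and 5.38% positive). BARD1 had -0.33 ± 0.06 (adjusted p = 0.00143), RAD51AP1 -0.41 ± 0.12 (adjusted p = 0.0349), RAD54B -0.38 ± 0.11 (adjusted p = 0.0361) and CHEK1 -0.25 ± 0.07 (adjusted p = 0.0388). BARD1 was the 1 member called without the filter on low values, and leaving out any of 8 of the 12 arrays left 1 or 2 calls.

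**Figure D3:**
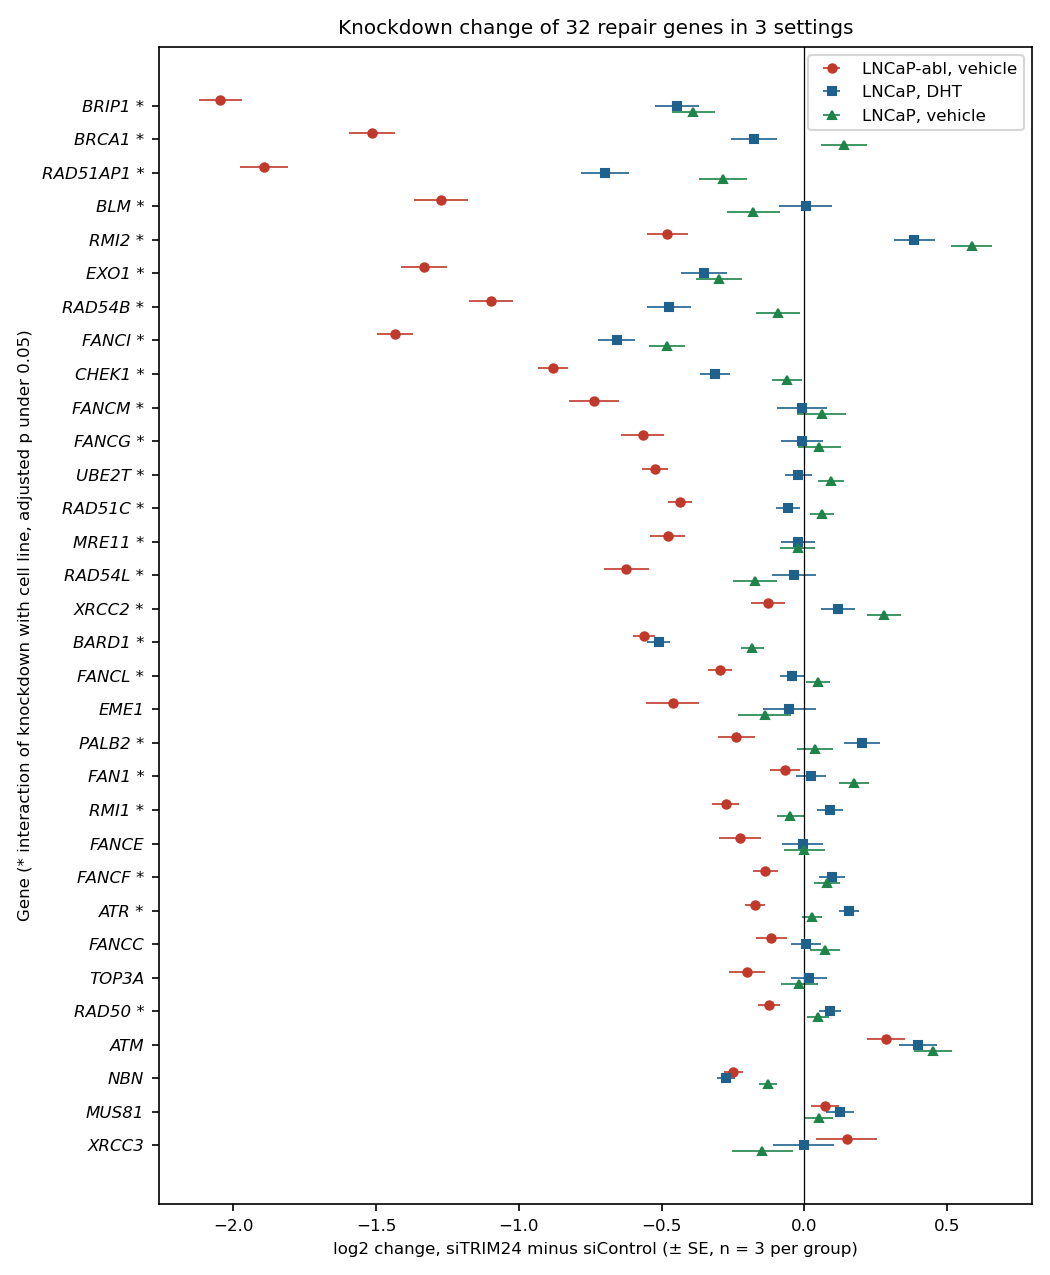
Log2 change after knockdown of the 32 tested members (rows) in LNCaP-abl, in LNCaP with DHT and in LNCaP with vehicle, drawn as points with bars of 1 standard error (n = 3 arrays per group), ordered by the interaction of knockdown with cell line. An asterisk marks a called interaction. The median of the members was -0.45 in LNCaP-abl, -0.01 in LNCaP with DHT and 0.01 in LNCaP with vehicle.

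DHT itself changed 2 members by more than 1 log2 unit, in opposite directions. Of 32 members 11 rose and 6 fell with control siRNA, against 19.4% and 26.4% of all tested genes (45.7% called), and arrays did not overlap for 18, against 52.5%. RAD54B read 8.53, 8.57 and 8.65 in LNCaP with DHT and control siRNA, against 6.64, 6.57 and 6.66 with vehicle. It rose by 1.96 ± 0.08 (adjusted p = 4.98e-12), or 3.89-fold, and no other member rose as far. BARD1 read 10.26, 10.23 and 10.27 with DHT, against 11.61, 11.60 and 11.56 with vehicle, a fall of 1.34 ± 0.04 (adjusted p = 1.22e-13), or 2.52-fold. The 2 genes' DHT and vehicle arrays were far apart relative to the spread within a group. RAD51AP1 read 7.65, 7.71 and 7.85 with DHT, against 7.05, 7.21 and 7.11 with vehicle, a rise of 0.61 ± 0.08 (adjusted p = 1.49e-05). EME1, FANCI and BRCA1 rose by 0.39 ± 0.09, 0.32 ± 0.06 and 0.31 ± 0.08, and FANCC, RAD51C, BRIP1, NBN, FANCE and CHEK1 by 0.17 to 0.29. The other tested probe sets of EME1 and BRCA1 were at 0.11 and 0.12 and not called. RMI1 fell by 0.27 ± 0.05 (adjusted p = 0.000141), PALB2 by 0.25 ± 0.06, FANCF, the adaptor of the core complex, by 0.22 ± 0.04 (adjusted p = 0.000837), and RAD50 and FANCL by 0.16 ± 0.04 each.

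With TRIM24 siRNA DHT raised 8 of 32 members and lowered 6, against 16.9% and 26.6% of all tested genes (43.5% called), and arrays did not overlap for 16, against 56.4%. RAD54B read 8.15, 8.09 and 8.09 with DHT, against 6.43, 6.62 and 6.54 with vehicle, a rise of 1.58 ± 0.08 (adjusted p = 7.48e-11). BARD1 read 9.70, 9.76 and 9.76 with DHT, against 11.42, 11.37 and 11.43 with vehicle, a fall of 1.66 ± 0.04 (adjusted p = 8.32e-15). Both thus kept their direction. FANCL fell by 0.25 ± 0.04 (adjusted p = 0.000109) and FANCF by 0.20 ± 0.04 (adjusted p = 0.00186). EME1 rose by 0.48 ± 0.09 but was at 0.02 (adjusted p = 0.9) in its other tested probe set. RAD51AP1, at 0.20 (adjusted p = 0.0657), and FANCI, at 0.14 (adjusted p = 0.0973), did not pass the test.

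Between the lines with control siRNA and vehicle, 21 of 32 members were higher and 8 lower in LNCaP-abl than in LNCaP, against 29.1% and 34.6% of all tested genes (63.8% called). Arrays did not overlap for 28 members, against 66.6% of all tested genes. The median difference was 0.35, against -0.02 for all tested genes, and 0.32 without EXO1, BRIP1 and BLM, where 18 of 29 were higher and 8 lower. This comparison shares its LNCaP-abl control arrays with the knockdown in LNCaP-abl and its LNCaP control arrays with the knockdown with vehicle, so the values are not independent of those above. BRCA1 read 7.85, 7.83 and 7.72 in LNCaP-abl, against 5.67, 5.83 and 6.01 in LNCaP, a difference of 1.96 ± 0.08 (adjusted p = 2.68e-12). The other BRCA1 probe set gave 0.42 (adjusted p = 0.00257). RAD51AP1 read 9.06, 8.99 and 9.03 in LNCaP-abl, against 7.05, 7.21 and 7.11 in LNCaP, a difference of 1.90 ± 0.08 (adjusted p = 6.13e-12). The lines did not overlap for either gene. BRIP1, EXO1, FANCI, UBE2T, BLM, RMI2 and CHEK1 were higher in LNCaP-abl by 1.15 to 1.86. BARD1 ran against them at 9.78, 9.83 and 9.85 in LNCaP-abl, against 11.61, 11.60 and 11.56 in LNCaP, a difference of -1.77 ± 0.04 (adjusted p = 1.24e-15), or 3.41-fold lower. FANCF was lower by 0.52 ± 0.04 on the log2 scale, at 8.85, 8.87 and 8.77 in LNCaP-abl, against 9.33, 9.42 and 9.29 in LNCaP (adjusted p = 3.62e-08). MUS81 was lower by 0.43 ± 0.05, at 7.86, 7.84 and 7.82 in LNCaP-abl, against 8.29, 8.21 and 8.30 in LNCaP (adjusted p = 9.41e-07). RAD50, ATM, FANCL, PALB2 and FAN1 were lower by 0.22 to 0.30.

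Several genes were measured by more than 1 probe set, and 14 had at least 2 that passed the filter. Tested singly, 55 probe sets of the members gave 38 falls and 2 rises after knockdown in LNCaP-abl, 17 and 7 in LNCaP with DHT and 14 and 7 in LNCaP with vehicle. Over all probe sets tested 41.2%, 35.3% and 34.0% were called, so the LNCaP counts are near the background. The 3 probe sets of BARD1 and the 4 tested ones of NBN fell in all 3 knockdowns, except that 1 of BARD1 did not pass the test with vehicle (-0.11). CHEK1 was the exception in LNCaP. A probe set of CHEK1 not used above rose by 0.22 with DHT and 0.30 with vehicle. Another fell by 0.47 and 0.40, and the remaining one by 0.78 and 0.30. In LNCaP-abl the probe set that had risen was at 0.03, whereas the other CHEK1 probe sets fell by 0.88 to 1.23. In LNCaP with control siRNA the same probe set fell by 0.30 with DHT (adjusted p = 5.65e-05), whereas the one used above rose by 0.17. RAD51C was at 0.06 with vehicle in the probe set used above and at -0.21 in another, which was called. CHEK1 and RAD51C values in LNCaP therefore depend on the probe set, as do those given above for BRCA1, FANCM, RAD50, ATM, EME1 and TOP3A in LNCaP-abl. The DHT responses of EME1 and, with control siRNA, of BRCA1, RAD50 and TOP3A also depend on it, as do those of ATM, NBN and CHEK1 with TRIM24 siRNA. RAD50 was at -0.07 and 0.17 in its other tested probe sets with control siRNA, neither called. With TRIM24 siRNA the other tested NBN probe sets rose by 0.24 to 0.42, all called, against 0.07 (not called) in the one used above. CHEK1 fell by 0.37 and 0.39 in the probe sets called there, against -0.09 in the one used above.

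**Figure D4:**
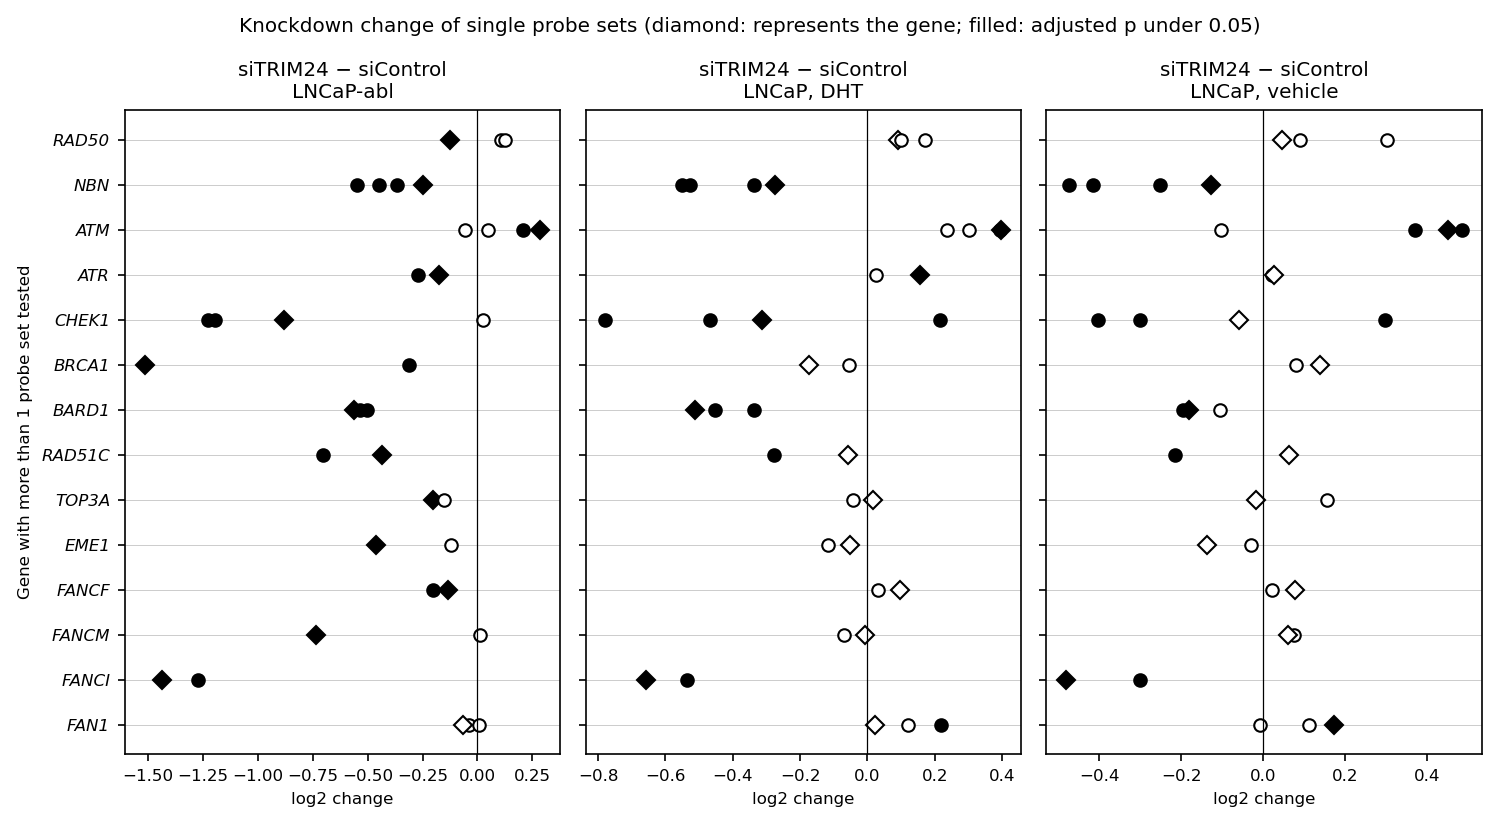
Log2 change after knockdown for each probe set of the 14 member genes that had more than 1 tested probe set (rows, by gene), in LNCaP-abl, in LNCaP with DHT and in LNCaP with vehicle, with a diamond for the probe set that represents the gene and filled symbols for called ones. The 3 CHEK1 probe sets with calls in LNCaP with vehicle lie on both sides of 0, from -0.40 to 0.30, while the BARD1 and NBN probe sets lie below 0.

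Other genes of these processes were taken from fixed lists, chosen with earlier results known. Of 52 other recombination and crosslink repair genes tested, 28 fell and none rose after knockdown in LNCaP-abl (median -0.21), where 28.8% of all tested genes fell and 16.7% rose. MND1, a meiotic recombination factor, fell by 1.97 ± 0.12, MCM8, a helicase of recombination, by 1.12 ± 0.06 and TIMELESS, a fork protection protein, by 0.97 ± 0.07. MND1 averaged at least 5.88 only in control LNCaP-abl cells (6.69), so it had to differ there. In LNCaP 14 fell and 9 rose with DHT, and 9 fell and 13 rose with vehicle, against 20.8% and 19.4% of all tested genes with DHT and 18% and 20.5% with vehicle. REV3L, the catalytic subunit of DNA polymerase zeta, fell by 0.73 ± 0.07 with DHT and by 0.71 ± 0.07 with vehicle, and SFR1, a strand exchange cofactor, rose by 0.39 ± 0.08 and 0.57 ± 0.08. Of 15 end joining genes 6 fell and none rose in LNCaP-abl (median -0.06), among them LIG4, the ligase of the pathway, by 0.40 ± 0.08. Of 31 S phase genes, which mark replicating cells, 26 fell and none rose in LNCaP-abl (median -0.85), 9 fell and 3 rose in LNCaP with DHT, and 6 fell and 7 rose with vehicle. RRM2, TYMS and TK1, enzymes of nucleotide supply, fell by 1.77 ± 0.06, 1.48 ± 0.04 and 1.46 ± 0.06 in LNCaP-abl. The S phase genes therefore moved with the repair genes in LNCaP-abl, and their part in the result was not tested.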

How the data were processed

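Gene expression was measured in LNCaP and LNCaP-abl cells on 18 arrays. The deposited values are log2 signals to which the authors had applied RMA, per the submitters' processing notes; its version is not given in the sources used here. They were used without further scaling. RMA pulls arrays towards 1 distribution, which would hide a shift common to most genes, and compresses low values.

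Of 54675 probe sets, 62 of them controls, 41097 carried a single gene symbol in the platform annotation; symbols were updated through a RefSeq gene table. Each gene was represented by its probe set with the highest mean. Testing required the third-highest of the 18 values to be at least 5.88, the table median. A model of 6 group means was fitted in limma 3.58.1 under R 4.3.3, leaving 12 residual degrees of freedom, with Benjamini-Hochberg adjustment over 13607 genes for each of 8 comparisons. Tests were two-sided. The median residual SD was 0.073. The fit was tested on simulated data.

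The members and lists were chosen with earlier results of these data known. Per-array values are given mainly for the 5 called members with the largest changes without overlap in a comparison, up to 3 against the majority, the brightest of each role group and the 4 strongest of each interaction; FAN1, the brightest of its group, and others are given by their changes, and further genes are named to account for the members. Same-numbered arrays deviated together at correlations of -0.30 to 0.20, so the numbers were not taken to pair the arrays. Alternatives were other filters, probe set choices, scalings, variance models, array weights, a GAPDH 3' to 5' covariate, a threshold of 0.01, the replicate block and each array left out.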

Additional observations from a re-analysis of the deposited data

Results flagged for a closer look

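The knockdown change differed between settings by the interaction test for 28 values. For LNCaP-abl minus LNCaP with vehicle, the difference in log2 change was -1.66 for BRIP1, -1.65 for BRCA1, -1.61 for RAD51AP1, -1.10 for BLM, -1.07 for RMI2, -1.03 for EXO1 and -1.01 for RAD54B. It was -0.95 for FANCI, -0.82 for CHEK1, -0.80 for FANCM, -0.62 for FANCG, -0.62 for UBE2T and -0.50 for RAD51C. The other tested FANCM probe set changed by 0.01 in LNCaP-abl and 0.07 in LNCaP with vehicle. A CHEK1 probe set not used here changed by 0.03 and 0.30. The BRCA1 term also depends on the probe set, as given above. Smaller differences were -0.45 for MRE11, -0.45 for RAD54L, -0.40 for XRCC2, -0.38 for BARD1, -0.34 for FANCL, -0.27 for PALB2, -0.24 for FAN1, -0.23 for RMI1, -0.21 for FANCF, -0.20 for ATR and -0.17 for RAD50. BLM, BRIP1 and EXO1 were below 5.88 in every LNCaP group, which can compress their changes there. They passed the filter only through control LNCaP-abl cells, which favoured a negative difference.

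For LNCaP with DHT minus LNCaP with vehicle, the difference was -0.41 for RAD51AP1, -0.38 for RAD54B, -0.33 for BARD1 and -0.25 for CHEK1. Among these, the calls of RAD51AP1, RAD54B and CHEK1 were lost under some of the alternatives, whereas BARD1 kept its call under each alternative and each left-out array that was run.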

How the results depend on the processing

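The counts of members called kept within 1.5 times of their values under the alternatives, with these exceptions. The knockdown by DHT term gave 4 calls, but 1 with no low-value filter, 1 at an adjusted p under 0.01 and 2 with the replicate block. It gave 1 to 3 with an array left out, with 1 or 2 without vehicle arrays 1 or 2 of control siRNA or 1 or 3 of TRIM24 siRNA, or DHT arrays 2 or 3 of either siRNA. DHT with TRIM24 siRNA gave 14 calls, but 8 at 0.01, and knockdown with vehicle gave 10, but 6 with the GAPDH covariate. With an array left out the counts were 24 to 27 for knockdown in LNCaP-abl, 11 to 13 with DHT, 8 to 11 with vehicle, 16 to 17 for DHT with control siRNA, 10 to 13 with TRIM24 siRNA, 27 to 30 for LNCaP-abl against LNCaP and 21 to 26 for knockdown by line. Of 63 values of named members 16 changed their call under at least 1 alternative and 2 changed sign with the largest-variance probe set: RAD51C in LNCaP with vehicle to -0.21 (adjusted p = 0.00155; 0.267 with the probe set used) and ATM in LNCaP-abl to -0.057 (adjusted p = 0.751). Over all genes, the covariate gave 3302 knockdown calls in LNCaP-abl, 3133 with DHT and 3433 with vehicle, against 6201, 5468 and 5236 without it. The GAPDH signal was higher on every TRIM24 siRNA array than on every control array of its setting, so these losses cannot be assigned to RNA quality. The knockdown by DHT term gave 993 with no filter and 652 at 0.01, against 1507, and the knockdown by line term 2216 at 0.01, against 3884. Tested singly, 29811 probe sets gave more calls than the genes (12277 in LNCaP-abl), since more features were tested. The replicate numbers were not taken to pair the arrays, and the block changed no other count by over 1.5 times. Low signals limit BRIP1, EXO1, BLM, BRCA1, XRCC3 and RAD54B, each below 5.88 in at least 1 group.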
